A study of Mus musculus with 12 samples.

Results

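The alpha chain of a T-cell receptor is joined from 1 variable segment (TRAV) and 1 joining segment (TRAJ), and the members described here are the chains whose J segment is named TRAJ30 to TRAJ39. Members were all deposited TRA contigs with one of those J names, whatever their measured values. Of the 10 names, 9 occurred (TRAJ30, TRAJ31, TRAJ32, TRAJ33, TRAJ34, TRAJ35, TRAJ37, TRAJ38 and TRAJ39), and TRAJ36 was named on 0 contigs. The members stood on 6515 of 24173 TRA contigs and on 6270 of the 21410 barcodes that carried a TRA chain.

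The receptors came from CD45+ cells sorted from subcutaneous tumours of C57BL/6J mice aged 6 to 8 weeks. Each mouse had been given 300000 cells of a p53-knockout derivative of the MC38 mouse colon carcinoma line that carries a p53 substitution, which the labels write in 2 differing ways. On day 10, when tumours measured about 50 to 100 mm³, the 3 LNP-P20-mAb samples had received 1 intratumoral dose of 40 µg LNP-P20-mAb and the 3 LNP-Ctrl samples the same dose of LNP-Ctrl. About 10000 sorted cells per sample entered the single-cell 5′ receptor libraries; no harvest time is given in the sources used here. The 6 matching gene expression libraries were not analysed here. All mice carried the same tumour line, so every comparison is between treated tumours and none is with tumour-free tissue. The labels do not say that the libraries of a treatment come from separate animals, and each p-value below therefore speaks of the spread among libraries, which may be technical.

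During thymic development the TRA locus is recombined between its TRAV segments and a long array of TRAJ segments. Early rearrangements join TRAV segments close to the array with the TRAJ segments at its 5′ end, and repeated rearrangement on the same allele moves outward in both directions, so that the position of a TRAJ along the array and the position of its TRAV partner are linked. The J segment writes the 3′ end of the CDR3, the loop that lies over the presented peptide. TRAJ33 joined to TRAV1 is the invariant alpha chain of mucosal-associated invariant T (MAIT) cells, which recognise vitamin B2 metabolites presented by MR1.

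The identity of each member is given first by its bases, because the J segment is the only thing the members were chosen by. Each line runs 5′ to 3′ from the last part of the CDR3 into framework 4, as read from the deposited chains; the TRA locus lies on mouse chromosome 14. Capitals mark the CDR3 end that most distinct chains of that segment shared (52.0 to 65.3% of them), and lower case marks framework 4.
TRAJ30: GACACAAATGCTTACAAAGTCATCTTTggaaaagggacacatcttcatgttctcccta
TRAJ31: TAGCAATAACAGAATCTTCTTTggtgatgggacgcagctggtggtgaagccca
TRAJ32: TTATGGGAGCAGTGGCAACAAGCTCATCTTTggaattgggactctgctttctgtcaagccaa
TRAJ33: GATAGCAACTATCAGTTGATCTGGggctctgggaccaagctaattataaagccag
TRAJ34: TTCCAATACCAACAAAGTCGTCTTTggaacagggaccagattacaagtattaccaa
TRAJ35: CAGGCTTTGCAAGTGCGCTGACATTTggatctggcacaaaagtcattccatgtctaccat
TRAJ37: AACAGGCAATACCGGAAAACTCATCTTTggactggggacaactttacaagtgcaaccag
TRAJ38: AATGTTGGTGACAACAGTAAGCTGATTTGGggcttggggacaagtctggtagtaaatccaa
TRAJ39: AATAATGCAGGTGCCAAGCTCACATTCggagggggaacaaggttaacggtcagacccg
The shared end was shortest in TRAJ31, with 22 bases, and longest in TRAJ32, with 31 bases. TRAJ33 and TRAJ38 close the loop with a tryptophan codon (TGG), and the other 7 close it with a phenylalanine codon.

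A cell was kept when its barcode held 1 TRB chain and 1 or 2 TRA chains, and cells of 1 library with the same TRB bases and a shared TRA chain formed a clonotype. This left 5532 member cells of 19115 and 2804 member clonotypes of 10624; 122 member barcodes had no TRB chain and 616 had surplus chains. The libraries held 2016 to 3923 kept cells, 85835 to 145847 UMIs and 400 to 3416 clonotypes, and 11 to 29 barcodes were shared between pairs of libraries. All 48792 deposited chains were TRA or TRB, the defining chains of alpha-beta T cells, so cells of other CD45+ types leave no value here. Cell numbers in such a table do not tell more cells of a clone apart from more receptor RNA per cell passing the authors' cell calling.

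LNP-P20-mAb 1 and 2 stand apart from the other libraries, since they held 35 member clonotypes in common, identical in the bases of both chains. Of the member cells, these took 87.9% in LNP-P20-mAb 1 and 86.0% in LNP-P20-mAb 2. The other 14 pairs of libraries shared 0 member clonotypes. Results between treatments are therefore also given with these 2 libraries pooled into 1.

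By clonotypes, the members made up 23.8 to 27.3% of each repertoire, with the lower shares in the LNP-P20-mAb tumours. LNP-P20-mAb libraries 1, 2 and 3 held 134, 100 and 340 member clonotypes, or 23.8%, 25% and 25.1% of their clonotypes. LNP-Ctrl libraries 1, 2 and 3 held 488, 808 and 934, or 27.1%, 26.1% and 27.3%. All 3 LNP-P20-mAb libraries were below all 3 LNP-Ctrl libraries. The mean share was 24.7% ± 0.702 in LNP-P20-mAb against 26.9% ± 0.642 in LNP-Ctrl (SD, n = 3 each), a difference of -2.21 percentage points (two-sided exact permutation test over libraries, p = 0.1, the smallest p that 3 against 3 can give). With LNP-P20-mAb 1 and 2 pooled, the difference was -2.43 points (exact permutation p = 0.1, again the smallest possible).

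Among the 9 segments, TRAJ30 and TRAJ31 were the most frequent and TRAJ35 and TRAJ38 the rarest in clonotypes. TRAJ30 made up 4.80%, 4.5% and 5.47% of clonotypes in LNP-P20-mAb libraries 1, 2 and 3, against 5.33%, 4.30% and 3.92% in LNP-Ctrl libraries 1, 2 and 3, and ranked 4 among the 43 TRAJ names by its mean share. TRAJ31 made up 3.20%, 5.50% and 3.69% in LNP-P20-mAb, against 4.83%, 5.14% and 5.83% in LNP-Ctrl. The ranges of the treatments overlapped for both. The mean shares over the 6 libraries were 4.72% for TRAJ30, 4.70% for TRAJ31, 3.58% for TRAJ37, 3.57% for TRAJ32, 3.40% for TRAJ33, 2.73% for TRAJ34, 2.42% for TRAJ39, 1.07% for TRAJ38 and 0.744% for TRAJ35. In that order the library ranges of neighbours overlapped, except that every TRAJ38 share lay below every TRAJ39 share.

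TRAJ34 and TRAJ37 were the members with the lowest clonotype shares in LNP-P20-mAb relative to LNP-Ctrl. TRAJ34 made up 1.78%, 1.00% and 3.18% of clonotypes in LNP-P20-mAb libraries 1, 2 and 3, against 2.94%, 3.78% and 3.72% in LNP-Ctrl libraries. Only LNP-P20-mAb 3 reached into the range of LNP-Ctrl. TRAJ37 made up 2.49%, 4.00% and 2.81% in LNP-P20-mAb against 4.28%, 3.46% and 4.42% in LNP-Ctrl, with 1 LNP-P20-mAb library inside the LNP-Ctrl range. Among the others, TRAJ33 ranged from 3.25 to 3.91% in LNP-P20-mAb, against 3.04 to 3.27% in LNP-Ctrl, and TRAJ32 from 2.36 to 4.45% in LNP-P20-mAb, against 3.13 to 3.83% in LNP-Ctrl. TRAJ39 ranged from 1.99 to 2.67%, TRAJ38 from 0.75 to 1.42% and TRAJ35 from 0.25 to 1.26% in LNP-P20-mAb, against 2.07 to 3.19%, 0.938 to 1.11% and 0.644 to 1.00% in LNP-Ctrl. For 0 of the 9 members did the clonotype shares of the treatments fail to overlap, while this held for 23.3% of all 43 TRAJ, 14.0% with LNP-P20-mAb above and 9.30% with it below.

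**Figure D1:**
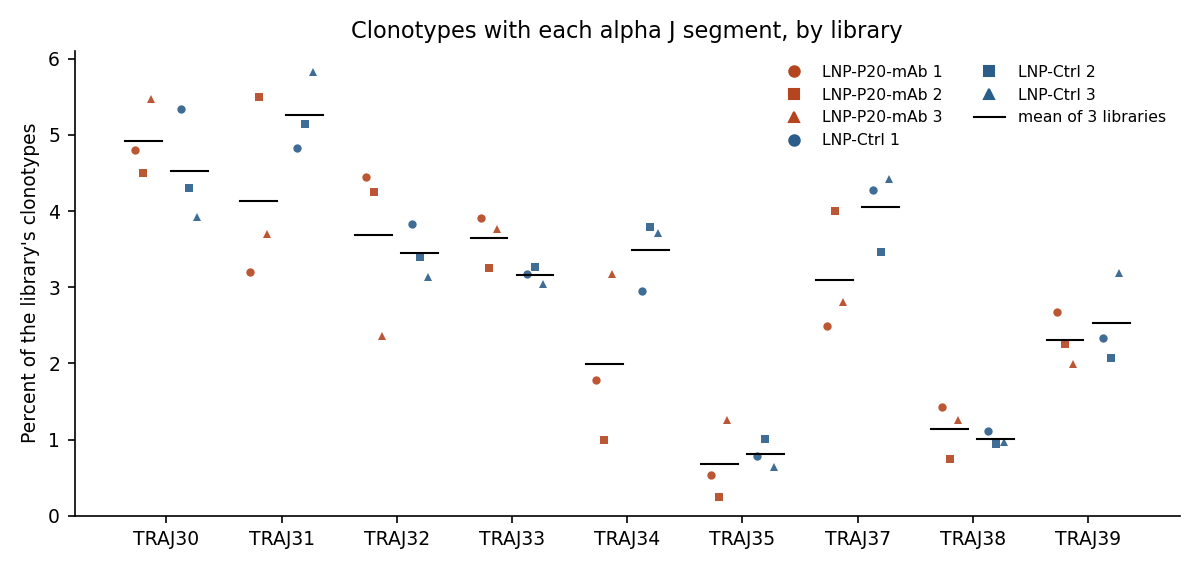
Share of clonotypes (percent, vertical axis) with each of the 9 TRAJ segments (horizontal axis) in the 3 LNP-P20-mAb and the 3 LNP-Ctrl libraries. Each symbol is 1 library and each line the mean of 3 libraries. TRAJ30 and TRAJ31 are highest, TRAJ35 and TRAJ38 lowest, and the treatments overlap at every segment.

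Fitted over clonotype counts of all V and J segments with edgeR's quasi-likelihood test, 0 of the 9 members passed an adjusted p of 0.05 between treatments, against 3.87% of the 155 segments tested, 1.94% in each direction. Without adjustment, 3 members were under 0.05, as were 29 of the 155 segments, and DESeq2 called 0 of the 9 as well as 2 of the 155. The 3 were TRAJ31 with a log2 change of -0.43 ± 0.19 (SE, edgeR adjusted p = 0.247), TRAJ34 with -0.58 ± 0.26 (edgeR adjusted p = 0.247) and TRAJ37 with -0.44 ± 0.21 (edgeR adjusted p = 0.263). Without LNP-P20-mAb 3, TRAJ34 had a log2 change of -1.28 and passed (edgeR adjusted p = 0.0490). That fit left only LNP-P20-mAb 1 and 2 as treated libraries. They share clones base for base and are not independent, so nothing is concluded from this call. With LNP-P20-mAb 1 and 2 pooled, 0 members passed.

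Counted in cells, the same segments differed between libraries by much more, and single clones carried many of the cells. The members made up 26.5%, 25.1% and 34.2% of cells in LNP-P20-mAb libraries 1, 2 and 3, and 35.4%, 25.6% and 26.9% in LNP-Ctrl libraries 1, 2 and 3. The highest member share of each treatment came from the library with the largest member clone. TRAJ35 held 3, 1 and 353 cells in LNP-P20-mAb libraries 1, 2 and 3, against 16, 43 and 22 in LNP-Ctrl libraries. TRAJ30 held 93, 50 and 117 cells in LNP-P20-mAb libraries, against 572, 237 and 136 in LNP-Ctrl libraries. As a share of cells, TRAJ30 was 2.85%, 2.48% and 4.12% in LNP-P20-mAb against 17.2%, 6.04% and 3.64% in LNP-Ctrl, so that the treatments overlapped in 1 library of each.

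TRAJ31 and TRAJ32 took their largest shares of cells in LNP-P20-mAb 1 and 2, at 8.18% and 8.28% for TRAJ31 and 6.71% and 5.95% for TRAJ32. TRAJ31 held 267, 167 and 74 cells in LNP-P20-mAb libraries 1, 2 and 3, against 134, 177 and 222 in LNP-Ctrl libraries. TRAJ32 held 219, 120 and 49 cells in LNP-P20-mAb libraries, against 99, 129 and 124 in LNP-Ctrl libraries. For both, LNP-P20-mAb 3 had the lowest share of cells of all 6 libraries, at 2.60% for TRAJ31 and 1.72% for TRAJ32. TRAJ34 was scarce in LNP-P20-mAb 1 and 2, with 11 and 4 cells, and held 150 cells in LNP-P20-mAb 3, against 57, 128 and 132 in LNP-Ctrl libraries. TRAJ33 ranged over all libraries from 2.78 to 4.92% of cells, TRAJ37 from 2.45 to 4.23%, TRAJ39 from 1.48 to 3.24% and TRAJ38 from 0.245 to 1.02%.

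**Figure D2:**
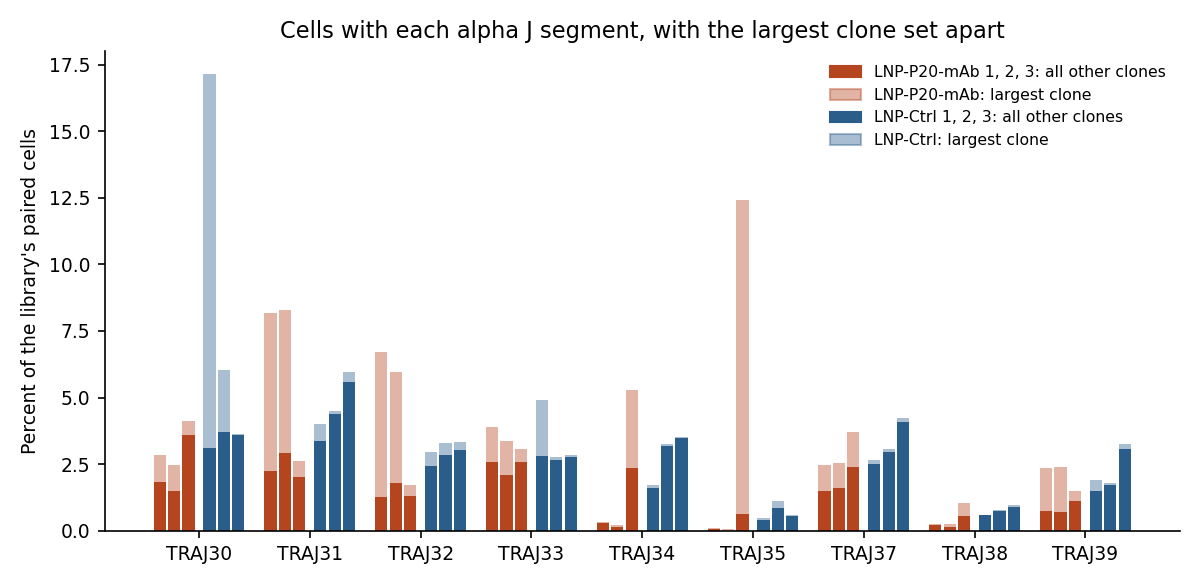
Share of kept cells (percent, vertical axis) with each TRAJ segment (horizontal axis), 1 bar per library in the order LNP-P20-mAb 1, 2, 3 and LNP-Ctrl 1, 2, 3; the pale part of a bar is the segment's largest clone in that library. TRAJ35 reaches 12.4% in LNP-P20-mAb 3, against 0.0919% and 0.0496% in LNP-P20-mAb 1 and 2, and TRAJ30 reaches 17.2% in LNP-Ctrl 1, most of it in 1 pale part each.

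The cell shares of the treatments overlapped for all 9 members, whereas they did not overlap for 37.2% of the 43 TRAJ. With each cell counted once in the edgeR fit, 0 of 160 segments passed, 44 were under an unadjusted p of 0.05, and 1 of these was a member.

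The largest member clones sat on different segments in different libraries. The largest of all was the TRAJ30 clone of LNP-Ctrl 1, whose 468 cells were 14.0% of the library's cells (95% exact binomial interval 12.9 to 15.3%, covering counting error only) and 81.8% of its TRAJ30 cells. It joined TRAV7D-2 to TRAJ30 and paired with TRBV20. The next was a TRAV4-2–TRAJ35 chain on 335 cells of a 414-cell clone in LNP-P20-mAb 3, which accounted for 94.9% of the TRAJ35 cells of that library. In 404 cells this clone also carried a second alpha, TRAV7D-2–TRAJ17, and its TRBV3 beta ended in TRBJ2-3. These sequences are shown because 1 chain each decided the cell number of a segment in a library; capitals mark the CDR3 end encoded as in the shared J end above.
LNP-Ctrl 1, TRAJ30 alpha of 468 cells: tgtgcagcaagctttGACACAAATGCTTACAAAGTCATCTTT
LNP-P20-mAb 3, TRAJ35 alpha of 335 cells: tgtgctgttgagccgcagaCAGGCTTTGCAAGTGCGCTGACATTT
LNP-P20-mAb 1 and 2, TRAJ31 alpha of 194 and 108 cells: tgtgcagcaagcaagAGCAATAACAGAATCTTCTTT
LNP-P20-mAb 1 and 2, TRAJ32 alpha of 178 and 84 cells: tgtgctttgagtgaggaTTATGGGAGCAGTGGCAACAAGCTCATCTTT
LNP-Ctrl 2, TRAJ30 alpha of 92 cells: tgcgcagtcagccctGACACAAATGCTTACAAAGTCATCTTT
LNP-P20-mAb 3, TRAJ34 alpha of 83 cells: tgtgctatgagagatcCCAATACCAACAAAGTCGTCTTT

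The largest TRAJ30 clone of LNP-P20-mAb held 33 and 20 cells in libraries 1 and 2 (TRAV14N-1 with TRBV13-1), and the 92-cell TRAJ30 clone of LNP-Ctrl 2 joined TRAV3-1 and paired with TRBV12-1. The TRAJ31 and TRAJ32 clones of LNP-P20-mAb 1 and 2 were shared by these libraries base for base. The TRAJ31 chain joined TRAV7D-2 and paired with TRBV26 in 194 and 108 cells, 5.95% and 5.36% of the 2 libraries. The TRAJ32 clone held 191 and 97 cells with a TRBV12-1 beta; 178 and 84 of them carried the TRAV12-2–TRAJ32 alpha, and 128 and 73 carried a TRAJ26 alpha. A further shared TRAJ31 clone, TRAV10N with TRBV13-1, held 56 and 32 cells. The largest TRAJ39 clone was also shared and held 53 and 34 cells, TRAV16D-DV11 with TRBV1.

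The largest TRAJ33 clone of LNP-P20-mAb held 43 and 26 cells in libraries 1 and 2, against 71 cells for the largest of LNP-Ctrl, in library 1; both joined TRAV7-4 and paired with TRBV13-3. The largest TRAJ34 clone held 83 cells in LNP-P20-mAb 3 (TRAV16N with TRBV16), against 4 cells for the largest of LNP-Ctrl, in library 2. The largest TRAJ37 clone held 37 cells in LNP-P20-mAb 3, against 6 in LNP-Ctrl 3, both TRAV12-2 with TRBV3, and the largest TRAJ38 clone held 13 cells in LNP-P20-mAb 3, against 3 in LNP-Ctrl 3. The largest LNP-Ctrl clones of the remaining segments held 22 cells for TRAJ31 (TRAV7D-4 with TRBV31, library 1), 18 for TRAJ32 (TRAV7D-2 with TRBV3, library 2), 13 for TRAJ39 (TRAV6N-7 with TRBV23, library 1) and 12 for TRAJ35 (TRAV12D-3 with TRBV29, library 2, the TRAJ35 alpha on 10 of them). Clones of 20 or more cells with a member alpha numbered 19 of 55 such clones in LNP-P20-mAb libraries, on 8 of the segments, and 5 of 23 in LNP-Ctrl libraries, on 3 segments. Those of 50 or more cells numbered 8 of 26 in LNP-P20-mAb, against 3 of 13 in LNP-Ctrl; clones held by LNP-P20-mAb 1 and 2 count once in each.

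Most member cells of LNP-P20-mAb tumours belonged to clonotypes of 2 or more cells, here called expanded. The expanded share of member cells was 87.6%, 85.2% and 69.9% in LNP-P20-mAb libraries 1, 2 and 3, and 61.7%, 24.6% and 10.1% in LNP-Ctrl libraries 1, 2 and 3. The treatments did not overlap, and LNP-Ctrl 1, which holds the 468-cell TRAJ30 clone, was the highest of its group. The means were 80.9% ± 9.64 in LNP-P20-mAb against 32.1% ± 26.6 in LNP-Ctrl (SD, n = 3 each), a difference of 48.8 points (two-sided exact permutation test, p = 0.1, the smallest possible). With LNP-P20-mAb 1 and 2 pooled the difference was 47.1 points (exact permutation p = 0.2), and with all libraries thinned to 2016 cells it was 50.5 points. Cells with no member chain were expanded at 85.4%, 84.7% and 52.6% in LNP-P20-mAb libraries 1, 2 and 3. In LNP-Ctrl libraries 1, 2 and 3 they were at 44.5%, 26.5% and 12.5%. The treatments did not overlap for these cells either, so the gap was not particular to the members.

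Member cells were not shown to be more often expanded than cells with no member chain. Within libraries 1, 2 and 3, the expanded share of member cells minus that of cells with no member chain was 2.204, 0.515 and 17.3 points in LNP-P20-mAb and 17.2, -1.91 and -2.45 points in LNP-Ctrl. It was positive in 4 of 6 libraries, with a mean of 5.47 points (two-sided exact sign-flip permutation test, p = 0.3125). The mean was 3.11 points without LNP-P20-mAb 3 and 3.12 points without LNP-Ctrl 1, the libraries with the largest member clone of each treatment. Between clonotypes of 3 or more cells and single-cell clonotypes, 0 of the 9 members differed in the edgeR fit with library as a block, against 2.58% of 155 segments. None of the 9 was under an unadjusted p of 0.05, where 24 of the 155 were, and DESeq2 also called 0 members. The interaction of expansion with treatment passed for 0 of 155 segments, with 2 under an unadjusted p of 0.05, neither of them a member.

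Related receptors recurred across libraries on several members, and the TRAJ30 clone of LNP-Ctrl 1 had counterparts in all 3 LNP-P20-mAb libraries. Receptors were called alike when they shared the TRAV (copies joined), TRAJ, TRBV and TRBJ names and both CDR3 lengths and differed by at most 2 residues in each chain. In LNP-P20-mAb 1 and 2, a clonotype of 2 and 1 cells encoded the same residues in both chains as the 468-cell clone, with 1 base changed in the alpha and 2 in the beta. In LNP-P20-mAb 3, a clonotype of 13 cells differed by 1 residue in each chain. The sequences below show these versions, with capitals marking the TRAJ30 end.
LNP-P20-mAb 1 and 2, alpha: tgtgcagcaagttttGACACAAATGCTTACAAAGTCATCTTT
LNP-P20-mAb 1 and 2, beta: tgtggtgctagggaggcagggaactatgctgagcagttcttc
LNP-P20-mAb 3, alpha: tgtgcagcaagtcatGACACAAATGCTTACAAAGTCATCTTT
LNP-P20-mAb 3, beta: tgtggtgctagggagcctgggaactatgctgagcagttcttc
LNP-Ctrl 1, alpha: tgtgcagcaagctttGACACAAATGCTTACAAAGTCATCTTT
LNP-Ctrl 1, beta: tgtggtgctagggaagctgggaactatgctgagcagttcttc
With a further single cell of LNP-P20-mAb 3, the family held 5 clonotypes and 485 cells, 17 in LNP-P20-mAb against 468 in LNP-Ctrl.

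With LNP-P20-mAb 1 and 2 counted as 1 set, 18 such families of member receptors spanned at least 2 sets of libraries, and 11 of them spanned both treatments. They lay on 8 of the 9 segments, all but TRAJ35, and held 2 to 485 cells. A TRAV7-4–TRAJ33 family with TRBV13-3 joined the largest TRAJ33 clones of both treatments, with 69 cells in LNP-P20-mAb against 71 in LNP-Ctrl, the chains differing by 1 residue in the alpha and 2 in the beta. A TRAV9-2–TRAJ37 family with TRBV10 had 6 clonotypes in 4 libraries, with 2 cells in LNP-P20-mAb against 5 in LNP-Ctrl. A TRAV9-1–TRAJ31 family with TRBV14 had 4 clonotypes in 3 libraries, with 1 cell in LNP-P20-mAb against 5 in LNP-Ctrl. The members gave 41 alike pairs of clonotypes among 2804, against 246 among 8266 clonotypes with other TRAJ, a description only since the number of possible pairs grows with the square of the number of clonotypes.

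TRAJ33 alphas that differed at 1 position also paired with betas of the same residues in several base versions. In LNP-P20-mAb 1 and 2, TRAV9N-3–TRAJ33 alphas paired with TRBV2 betas of the same residues, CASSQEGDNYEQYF, in 3 base versions. The alpha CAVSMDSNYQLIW stood with the first version in 28 and 2 cells and with another in 1 and 1 cells, and the alpha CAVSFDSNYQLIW stood with the third in 31 and 23 cells. The other 4 libraries held 0 cells of these pairs. The beta sequences are given without capitals, since no part of them comes from TRAJ33.
Alpha of 28 and 2 cells: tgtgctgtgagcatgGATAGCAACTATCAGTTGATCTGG
Its beta: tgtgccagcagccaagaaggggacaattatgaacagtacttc
Alpha of 31 and 23 cells: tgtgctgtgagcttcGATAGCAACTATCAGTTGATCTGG
Its beta: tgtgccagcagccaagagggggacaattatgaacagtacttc

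Alpha chains taken alone also recurred across libraries, and any shared whole receptor brings its alpha with it. By residues and joined TRAV name, 5 member alphas occurred in 4 libraries, 12 in 3, 157 in 2 and 2495 in 1. With LNP-P20-mAb 1 and 2 counted as 1 set, because they share clones base for base, 1 alpha occurred in 4 sets, 16 in 3, 125 in 2 and 2527 in 1. The 5 alphas of 4 libraries were TRAV7-2–TRAJ30 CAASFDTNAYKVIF on 472 cells with 3 betas, a TRAV16–TRAJ37 alpha on 52 cells, TRAV9-3–TRAJ33 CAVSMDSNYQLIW on 35 cells with 5 betas, TRAV9-1–TRAJ31 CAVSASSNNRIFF on 14 cells with 5 betas, and TRAV1–TRAJ33 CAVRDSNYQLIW on 12 cells with 12 betas. The TRAV1–TRAJ33 alpha was the only one of the 5 that had a different beta in every cell and the only one in 4 sets; the other 4 were in both LNP-P20-mAb 1 and 2.

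TRAV1–TRAJ33, the MAIT alpha, was rare and seen only in clonotypes of 1 cell. It occurred in 17 clonotypes of 1 cell each, of 348 TRAJ33 clonotypes and 76 TRAV1 clonotypes. Of all TRAJ33 clonotypes, 17.6% had 2 or more cells in LNP-P20-mAb 3. In LNP-Ctrl libraries 1, 2 and 3 this was 10.5%, 3.96% and 1.92%. With such low shares, 17 clonotypes cannot show that the pair expands less than other TRAJ33 chains. LNP-P20-mAb libraries 1, 2 and 3 held 0, 0 and 3, and LNP-Ctrl libraries 1, 2 and 3 held 2, 8 and 4. The counts of 0 allow up to 0.534% and 0.75% of clonotypes in LNP-P20-mAb 1 and 2, both above every share measured in LNP-Ctrl. The share of clonotypes was 0.0739% ± 0.128 in LNP-P20-mAb against 0.162% ± 0.0836 in LNP-Ctrl (SD, n = 3 each), a difference of -0.0885 points (two-sided exact permutation test, p = 0.3). It was -0.0515 points with LNP-P20-mAb 1 and 2 pooled and also without either one of them (exact permutation p = 0.6). Single libraries moved it further, to -0.0402 points without LNP-Ctrl 2 and -0.162 points without LNP-P20-mAb 3, the only LNP-P20-mAb library in which the pair was seen.

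All 17 chains had a CDR3 of 12 residues, the length of the invariant chain. Of the 17, 12 encoded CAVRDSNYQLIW, and 10 did so with the same bases in 4 libraries. The beta came from a segment known for MAIT cells of mice (TRBV13-2, TRBV13-3 or TRBV19, or the joint name TRBV12-2+TRBV13-2 of the deposited files) in 10 of 17. Of these, 1 was TRBV13-2, 3 were TRBV13-3, 3 were TRBV19 and 3 had the joint name, which does not tell TRBV12-2 from TRBV13-2. Among all 10624 clonotypes, TRBV13-2 stood on 126, TRBV13-3 on 682, TRBV19 on 771 and the joint name on 1049. TRAJ33 was the J segment that TRAV1 joined most often, on 11 chains distinct within their library, ahead of TRAJ21 on 6 and TRAJ26 on 5. The 8 base versions are shown with the TRAJ33 bases in capitals.
TRAV1–TRAJ33 in 10 clonotypes: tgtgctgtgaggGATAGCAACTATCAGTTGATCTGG
TRAV1–TRAJ33 in 1 clonotype, same residues: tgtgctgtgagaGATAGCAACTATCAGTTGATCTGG
TRAV1–TRAJ33 in 1 clonotype, same residues: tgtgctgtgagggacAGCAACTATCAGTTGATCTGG
TRAV1–TRAJ33 in 1 clonotype, other residues: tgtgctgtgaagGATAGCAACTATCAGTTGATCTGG
TRAV1–TRAJ33 in 1 clonotype, other residues: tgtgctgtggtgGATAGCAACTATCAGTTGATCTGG
TRAV1–TRAJ33 in 1 clonotype, other residues: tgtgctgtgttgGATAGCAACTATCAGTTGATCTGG
TRAV1–TRAJ33 in 1 clonotype, other residues: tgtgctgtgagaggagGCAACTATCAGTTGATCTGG
TRAV1–TRAJ33 in 1 clonotype, other residues: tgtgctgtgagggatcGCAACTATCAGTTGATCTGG

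The members as a whole had shorter alpha CDR3 loops than other TRAJ, with long and short segments among them. Over distinct chains, the library mean was 13.5 residues for members and 13.8 for other TRAJ, a mean difference of -0.274 residues. Within LNP-P20-mAb libraries 1, 2 and 3 the difference was -0.0271, -0.299 and -0.331, and within LNP-Ctrl libraries 1, 2 and 3 it was -0.178, -0.331 and -0.477. The members were shorter in 6 of 6 libraries (two-sided exact sign-flip permutation test, p = 0.031). The mean J part of the loop is set by the segment, so this length follows in part from the rule that chose the members. With each cell counted once the difference was -0.0805 residues (exact sign-flip permutation p = 0.5), and with LNP-P20-mAb 1 and 2 pooled it was -0.292 (p = 0.0625, the smallest exact p for 5 libraries). Against TRAJ21 to TRAJ28 the difference was -0.164 residues (exact sign-flip permutation p = 0.09375), and against TRAJ40 to TRAJ49 it was -0.0968 (exact p = 0.375).

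By segment, pooled over libraries, TRAJ31 had the shortest loops of all 43 TRAJ, with 12.43 ± 1.17 residues (SD over chains, range 7 to 16). TRAJ43, outside the members, was close with 12.45 ± 1.19. By the mean within-library difference from other TRAJ, TRAJ43 was the shorter, at -1.37 residues against -1.27 for TRAJ31. TRAJ33 had 12.6 ± 1.24 (range 6 to 15) and TRAJ34 12.8 ± 1.21. TRAJ32 had the longest of the members, 15.02 ± 1.16 (range 12 to 18), followed by TRAJ38 with 14.6 ± 1.01 and TRAJ37 with 14.1 ± 1.08. Each TRAJ was set against the other 42 within libraries by an exact sign-flip test with adjustment over the 43. Of the members, 4 were shorter at an adjusted p of 0.05 by permutation (TRAJ30, TRAJ31, TRAJ33 and TRAJ35; 0.0498 each), against 30.2% of all TRAJ. The 3 longer ones were TRAJ32, TRAJ37 and TRAJ38, against 32.6% of all TRAJ. TRAJ34, with -0.665 residues, and TRAJ39, with -0.0182, did not pass. TRAJ34 was shorter in all libraries but LNP-P20-mAb 2, which held 4 TRAJ34 chains. For TRAJ35, LNP-P20-mAb 1 and 2 held only 3 chains and 1 chain. All these calls count LNP-P20-mAb 1 and 2 as independent, although these libraries share clones base for base. With them pooled, the smallest possible exact p is above 0.05, so no segment could pass. Between treatments the members' mean length was 13.6 residues in LNP-P20-mAb against 13.4 in LNP-Ctrl (exact permutation p = 0.4).

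**Figure D3:**
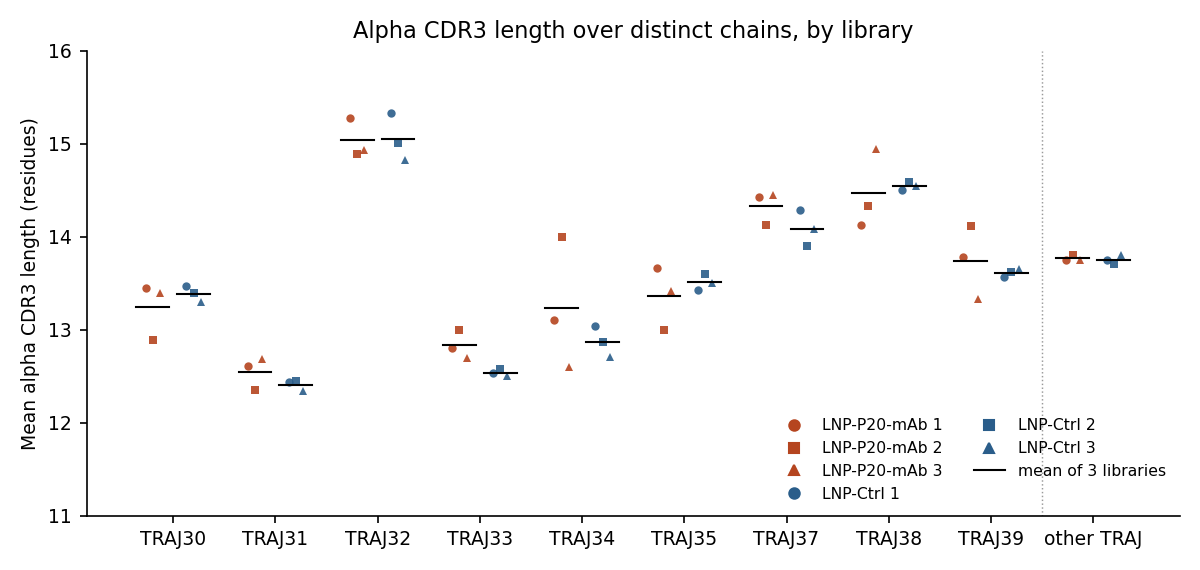
Alpha CDR3 length (residues, vertical axis) of the distinct chains of each TRAJ segment (horizontal axis), with 1 symbol for the mean of each LNP-P20-mAb and LNP-Ctrl library and a line for the mean of 3 libraries; the last column holds all other TRAJ. TRAJ31 and TRAJ33 lie lowest and TRAJ32 and TRAJ38 highest in both treatments.

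Few TRAV partners of the members passed against other TRAJ once the near-identical D and N copies of a TRAV were joined under 1 name. Of 47 joined TRAV, 6.38% differed between member chains and other chains (edgeR with library as a block, adjusted p under 0.05), all lower on member chains. In the same fit 12 of the 47 were under an unadjusted p of 0.05. TRAV16 made up 8.63%, 5.77% and 7.92% of member chains in LNP-P20-mAb libraries and 5.46%, 5.40% and 4.58% in LNP-Ctrl libraries, and was below its share on other chains in 5 of 6 libraries (log2 difference -0.45 ± 0.11 SE, edgeR adjusted p = 0.00901). TRAV9-3 was lower with a log2 difference of -0.72 ± 0.23 (edgeR adjusted p = 0.0244), again in 5 of 6 libraries, the exception being LNP-P20-mAb 1. TRAV21 was lower with -1.51 ± 0.43 (edgeR adjusted p = 0.0132), on only 13 of 2913 member chains. TRAV1 had a log2 difference of 1.13 and did not pass (edgeR adjusted p = 0.0876). DESeq2 and edgeR with TMM scaling called 0 of the 47, with 7 and 12 under an unadjusted p of 0.05, so these 3 calls rest on the tool and the scaling. They also rested on single libraries: TRAV16 missed the threshold without LNP-Ctrl 1 or 3 (edgeR adjusted p = 0.0869 and 0.212), TRAV21 without any 1 LNP-Ctrl library (0.0574 to 0.212), and TRAV9-3 without any 1 LNP-Ctrl library or LNP-P20-mAb 3 (0.0574 to 0.212).

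With TRAV names as deposited, 25.6% of 78 differed by the same test, 12.8% higher and 12.8% lower on member chains. TRAV12-2 made up 6.47%, 6.73% and 5.28% of member chains in LNP-P20-mAb libraries and 5.85%, 4.92% and 4.68% in LNP-Ctrl libraries, above other chains in 6 of 6 (log2 difference 0.70). Its N copy, TRAV12N-2, was below other chains in 6 of 6 libraries, with a mean of 1.2% on member chains against 2.70% on other chains (log2 difference -1.01). The names that were higher by most were TRAV4-3 (1.09), TRAV12-3 (0.91), TRAV7-5 (0.86), TRAV9-1 (0.77) and TRAV13-1 (0.74). Those lower by most were TRAV12N-1 (-3.41, on 1 member chain), TRAV13N-1 (-1.59), TRAV21-DV12 (-1.49), TRAV14-3 (-1.02), TRAV14N-2 (-0.85), TRAV6N-6 (-0.80), TRAV9N-3 (-0.73) and TRAV16 (-0.71). How chains were split between such near-identical names was the authors' assignment and is uncertain. DESeq2 called 2 of the 78, TMM scaling 14, and the fits without 1 library 5 to 21.

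**Figure D4:**
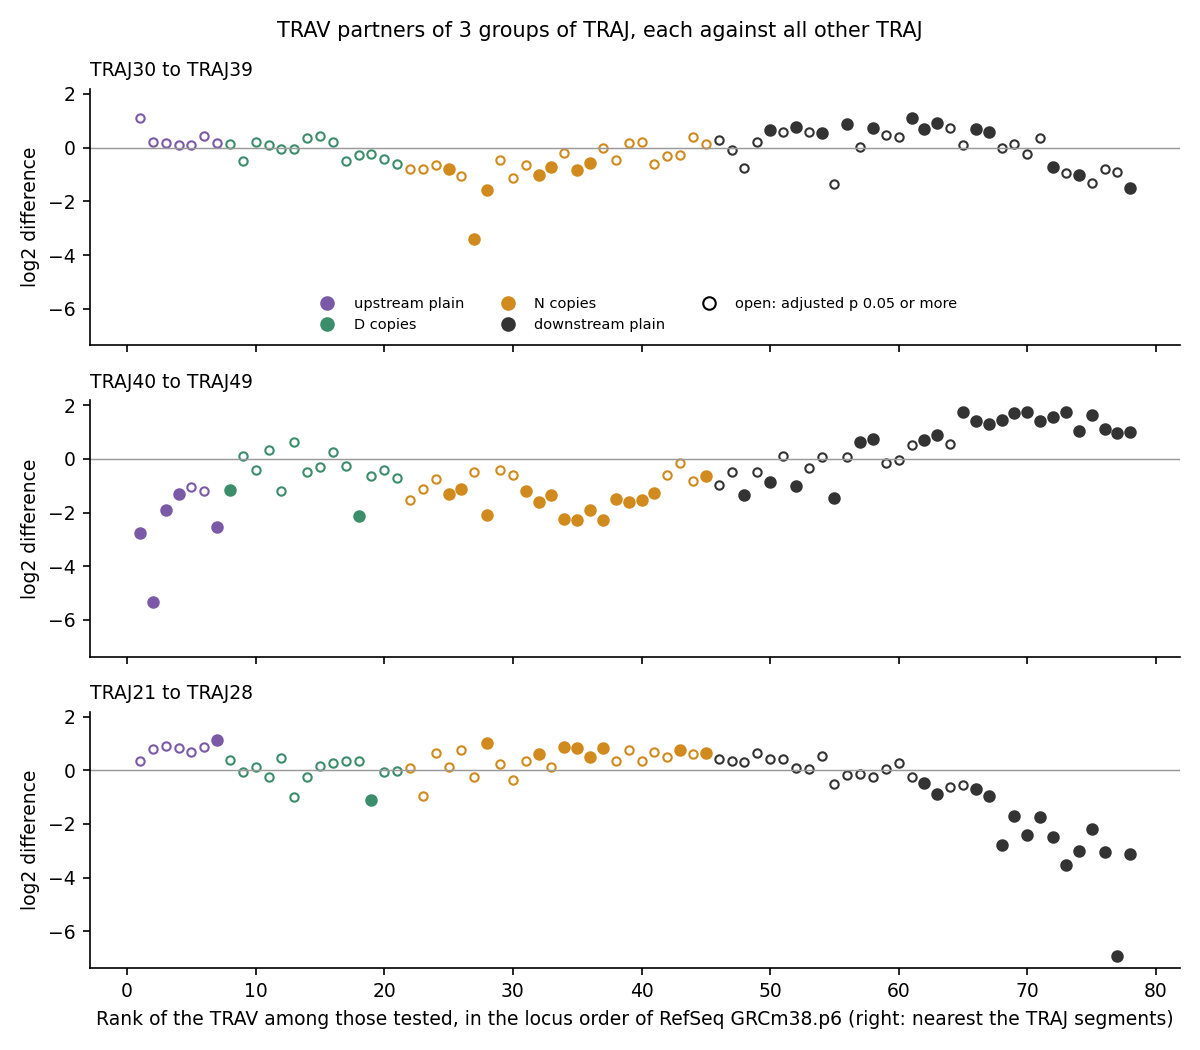
Log2 difference in frequency (vertical axis) of each TRAV name as deposited between the chains of a group of TRAJ and all other chains, for TRAJ30 to TRAJ39 (top), TRAJ40 to TRAJ49 and TRAJ21 to TRAJ28, with TRAV in locus order (horizontal axis, nearest the TRAJ array at the right) and coloured by block (upstream plain names, D copies, N copies, downstream plain names). Filled points passed an adjusted p of 0.05; in the top panel the 7 filled points among N copies all lie below 0, and 10 of the 13 filled points among downstream plain names lie above 0.

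In the locus order of RefSeq (GRCm38.p6), the TRAV names run from a few upstream plain names through the D and N copies to the plain names downstream, next to the TRAJ array. Of 33 downstream plain names, 10 were higher on member chains and 3 lower, and the 3 (TRAV16, TRAV14-3 and TRAV21-DV12) lie at the end of the block nearest to the array. Of 24 N copies, 7 were lower and 0 higher. Of 14 D copies and 7 upstream plain names, 0 passed; these blocks were drawn after the values were seen, so the split is a description. The sides differed for the flanking J segments: with TRAJ40 to TRAJ49, 18 downstream plain names were higher and 15 N copies lower, and with TRAJ21 to TRAJ28, 15 downstream plain names were lower and 8 N copies higher.

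The downstream block took a larger share of member chains than of other chains in every library. In LNP-P20-mAb libraries 1, 2 and 3 it held 48.2%, 48.1% and 51.3% of member chains, against 45.7%, 43.5% and 46.5% of other chains. In LNP-Ctrl libraries 1, 2 and 3 it held 52.6%, 54.2% and 54.6% of member chains, against 43.1%, 43.8% and 43.4% of other chains. The means were 51.5% ± 2.85 for members, 69.2% for TRAJ40 to TRAJ49 and 33.9% for TRAJ21 to TRAJ28 (n = 6 libraries). Along the array, from its 5′ side, the pooled share was 85.5% for TRAJ57, 64.5% for TRAJ40, 38.1% for TRAJ28, 26.7% for TRAJ21 and 9.57% for TRAJ5. Within the members it was 61.3% for TRAJ39, 60% for TRAJ38, 57.2% for TRAJ37, 63.2% for TRAJ35, 58.5% for TRAJ34, 51.5% for TRAJ33, 54.7% for TRAJ32, 50.5% for TRAJ31 and 41.2% for TRAJ30. TRAJ30, at the 3′ end of the set, was the only member under 50%.

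**Figure D5:**
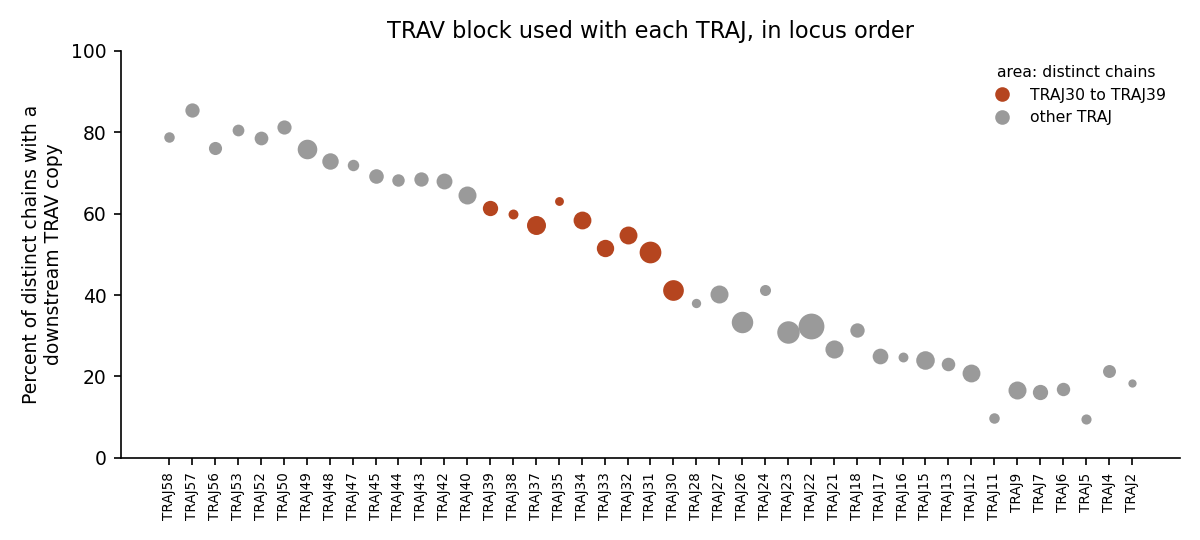
Share of distinct chains (percent, vertical axis) whose TRAV belongs to the downstream block of plain names, for each TRAJ in locus order (horizontal axis), pooled over the 6 libraries, with point area scaled to the number of distinct chains. The 9 members lie between 41.2% (TRAJ30) and 63.2% (TRAJ35), below TRAJ40 at 64.5% and above TRAJ28 at 38.1%.

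Single segments had few partners of their own. TRAJ31 joined TRAV10 on 34 chains where 16.7 were expected from the share of TRAV10 on all chains (log2 difference 1.09 ± 0.30 SE, edgeR adjusted p = 0.0305), above other chains in 6 of 6 libraries. This was the only one of 101 segment and TRAV pairs that passed, 0.990% of those tested. With beta segments, 1.67% of 120 pairs passed. TRAJ30 paired with TRBV19 in 57 clonotypes where 34.98 were expected, at 11.1%, 11.1% and 9.46% of its clonotypes in LNP-P20-mAb libraries and 13.5%, 12.8% and 11.2% in LNP-Ctrl libraries (log2 difference 0.75 ± 0.22 SE, edgeR adjusted p = 0.0496). TRAJ31 paired with TRBV15 in 30 clonotypes where 13.7 were expected (log2 difference 1.15 ± 0.30 SE, edgeR adjusted p = 0.0240), 12 and 15 of them in LNP-Ctrl 2 and 3. The share of TRBV15 on TRAJ31 clonotypes was above that on other clonotypes in 3 libraries and below it in 3. With LNP-P20-mAb 1 and 2 pooled, all 3 pairs missed the threshold (edgeR adjusted p = 0.0914, 0.0958 and 0.111). In that pooled setting 1 of 101 TRAV pairs passed, a pair other than TRAJ31 with TRAV10, and 0 of 119 TRBV pairs. Without 1 library, TRAJ31 with TRAV10 passed only when LNP-Ctrl 2 was left out (other adjusted p 0.0514 to 0.471, the highest without LNP-Ctrl 3), and TRAJ30 with TRBV19 only when LNP-P20-mAb 3 was (others 0.0554 to 0.222). TRAJ31 with TRBV15 missed it without LNP-P20-mAb 1 (0.0653) and had too few expected clonotypes to be tested without LNP-Ctrl 2 or 3.

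The most frequent TRAV of each segment took 6.45 to 9.70% of its chains. TRAV12-2 led TRAJ32 (8.94%), TRAJ34 (8.19%) and, together with TRAV12-3, TRAJ38 (8.18%). TRAV16 led TRAJ30 (7.11%) and TRAJ37 (9.70%), and the leaders of the others were TRAV10 for TRAJ31 (6.45%), TRAV3-3 for TRAJ33 (6.55%), TRAV9-4 for TRAJ35 (9.20%) and TRAV13-1 for TRAJ39 (8.43%). All 9 segments met 37 to 43 joined TRAV. Among beta segments, TRBV19 was the most frequent partner of TRAJ30, TRAJ33 and TRAJ38, TRBV5 of TRAJ32 and TRAJ39, TRBV3 of TRAJ35, and the joint name TRBV12-2+TRBV13-2 of TRAJ31, TRAJ34 and TRAJ37. Over all members together, 0 of 22 TRBV differed from the clonotypes without a member (edgeR, 0% of those tested), 3 were under an unadjusted p of 0.05, and DESeq2 called 0.

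TRAJ35 had the highest pooled share of clonotypes with a second alpha chain among the members, but its difference from other TRAJ did not pass. Of its 88 clonotypes, 44 held 2 TRA chains, or 50%, the highest of the 43 TRAJ, whose other 34 ranged from 14.8% to 36%. Library by library, this came to 66.7%, 0% and 47.1% in LNP-P20-mAb against 57.1%, 35.5% and 68.2% in LNP-Ctrl, with 3, 1 and 17 TRAJ35 clonotypes in LNP-P20-mAb against 14, 31 and 22 in LNP-Ctrl. The other members lay between 19.0% for TRAJ33 and 32.7% for TRAJ38. In the 44 clonotypes the TRAJ35 chain had fewer UMIs than the other alpha in 21, more in 19 and the same number in 4. The TRAJ35 share was looked at after the values were seen. Within libraries it was above that of other TRAJ by a mean of 23.1 points, in 5 of 6 libraries. It did not pass (two-sided exact sign-flip permutation test, p = 0.09375, adjusted p = 0.336 over the 43 TRAJ). The UMI comparison was not tested.

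Some large member clones lost many barcodes to the rule of 1 TRB chain, and their sizes above leave these barcodes out. The TRAJ37 alpha of the 37-cell clone in LNP-P20-mAb 3 stood on 91 barcodes, of which 52 were left out; 51 of these also carried the TRBV3 beta of the 414-cell TRAJ35 clone, at a median of 4 UMIs beside 28 for the clone's own beta, and 0 carried that clone's alpha. The TRAJ39 alpha of the 53-cell clone in LNP-P20-mAb 1 stood on 93 barcodes, of which 36 were left out, each with a second TRBV1 beta. The TRAJ31 alpha of the 56-cell clone stood on 75 barcodes, of which 18 were left out. In the named LNP-Ctrl clones of 20 or more cells, 0 barcodes were left out.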

How the data were processed

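Counts of reads and UMIs per assembled chain, with V, J and C names and CDR3 sequences, were taken as the authors deposited them in 6 tables; Cell Ranger 8.0.1 is named in the submitters' processing notes, and every listed chain was productive. Cell and chain calling were the authors' and set which chains are seen. Cells with 1 TRB and 1 or 2 TRA chains were kept; clonotypes were built within libraries from CDR3 bases and V and J names. Usage was tested on clonotype or distinct-chain counts with edgeR 4.0.16 (quasi-likelihood, Benjamini-Hochberg over all segments with at least 30 clonotypes), after the code was tested on simulated data; DESeq2 1.42.0 was an alternative. Single values were tested by exact permutation over libraries, in Python 3.11.15 with scipy 1.17.1. D and N copies of a TRAV were joined for the main test. Members and lists were chosen with earlier results of these data known. Named were all 9 segments, partners past an adjusted p of 0.05 (at most 15), the leading partners, each segment's largest clone per treatment and clones of 50 or more cells. The TRAV names as deposited and the single pairs were added after seeing the data. UMIs per library ranged from 85835 to 145847.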

Additional observations from a re-analysis of the deposited data

Results flagged for a closer look

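Among 30 within-library differences looked at, 3 had 1 library far from the other 5, where chance gives about 1 in 20. All 3 were alpha CDR3 lengths in LNP-P20-mAb 2, the library with the fewest clonotypes. TRAJ30 loops were -0.9198 residues from those of other TRAJ there, over 18 chains, against -0.502 to -0.2844 in the other libraries. TRAJ34 loops were 0.1913 residues longer there, over 4 chains, against -1.155 to -0.6537 elsewhere. TRAJ35 was at -0.8087 residues on a single chain, against -0.3384 to -0.087 elsewhere. The chain numbers behind these values are small, and their part in the result was not tested.

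For TRAJ39, the share of cells with 2 TRA chains minus that of all cells with any chain outside TRAJ30 to TRAJ39 was -5.70, -7.04 and -9.17 points in LNP-P20-mAb libraries 1, 2 and 3 against 9.55, 13.6 and 2.04 points in LNP-Ctrl libraries 1, 2 and 3, a mean difference of -15.7 points. Every library of a treatment moved the same way, and the difference itself was not tested. It was the only 1 of the 30 differences looked at with opposite signs in the treatments, a number that chance alone could give. LNP-P20-mAb 1 and 2 are also not independent. The shared TRAJ39 clone of LNP-P20-mAb 1 and 2, which had 1 alpha, held 53 of 77 and 34 of 48 TRAJ39 cells there. In LNP-P20-mAb 3 the comparison cells were at 28.2%, against 19.0% for TRAJ39. They included the 404 cells with the TRAJ17 alpha of the 414-cell TRAJ35 clone. Of the TRAJ35 cells in that library, 94.3% had 2 TRA chains. The part of these clones in the result was not tested.

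A larger share of the barcodes with a member chain was left out for surplus chains in LNP-P20-mAb. This was 12.9%, 11.9% and 17.8% of barcodes with a member chain in LNP-P20-mAb libraries 1, 2 and 3 (131 of 1015, 69 of 582 and 214 of 1201), against 3.82%, 8.24% and 5.62% in LNP-Ctrl libraries (48 of 1257, 93 of 1129 and 61 of 1086). The treatments did not overlap. The surplus share over all barcodes was not computed, so this is not shown to be particular to the members. Of all barcodes with a TRA chain, LNP-P20-mAb libraries 1, 2 and 3 kept 3263 of 3864, 2016 of 2265 and 2843 of 3267. LNP-Ctrl libraries 1, 2 and 3 kept 3333 of 3633, 3923 of 4346 and 3737 of 4035, a larger part in each. These losses include barcodes with no TRB chain.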

How the results depend on the processing

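Of the summary values recomputed under other settings, 104 kept their direction and their side of the threshold or stayed within 1.5 times the count, 8 lost the call and 11 counts moved further. Single values between treatments could not change side, since their exact tests cannot pass. All losses were of the CDR3 length difference, mostly in fits on 5 libraries, which cannot pass either. Of the values for single segments and partners, 306 stayed the same, 106 lost the call, 14 changed sign and 1 gained the call. Members called between treatments were 0, and 0 to 1 without 1 library. The 1 was TRAJ34 without LNP-P20-mAb 3, where only LNP-P20-mAb 1 and 2, which are not independent, remained as treated libraries. Joined TRAV partners called were 3; the number was 0 with DESeq2, 0 with TMM scaling, 20 with names as deposited, 6 with surplus chains kept, 1 with chains of at least 3 UMIs, and 0 to 4 without 1 library. Names as deposited called were 20, against 2 with DESeq2 and 5 to 21 without 1 library. The CDR3 length difference was -0.0805 with each cell counted once, -0.292 with LNP-P20-mAb 1 and 2 pooled, and -0.323 to -0.233 without 1 library, where 5 libraries cannot pass the threshold. No member passed between treatments by log2 change, and some changed sign: with each cell counted once TRAJ30 was -1.51, TRAJ31 0.40, TRAJ32 0.74, TRAJ33 -0.031 and TRAJ38 -0.62. TRAJ32 was 0.087 with DESeq2, 0.035 with TMM scaling, 0.079 with surplus chains kept and 0.086 with chains of at least 3 UMIs. Without 1 library, TRAJ32 ranged from -0.23 to 0.35, TRAJ35 from -0.95 to 0.34 and TRAJ39 from -0.33 to 0.036. The cause of these changes was not tested.

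The labels share replicate numbers, but libraries of the same number did not deviate together (r = -0.0734, -0.154 and -0.0827), so the numbers were not taken as pairs. With the replicate block, the clonotype share difference of -2.21 points had an exact p of 0.25, the expanded share difference of 48.8 points an exact p of 0.25, the TRAV1–TRAJ33 difference of -0.0885 points an exact p of 0.5, and edgeR called 0 members. With 3 libraries per treatment no exact test of a single value between treatments can pass 0.05, and LNP-P20-mAb 1 and 2 are not independent. LNP-P20-mAb 2, with 400 clonotypes, limits segments as rare as TRAJ35.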
